A study of Mus musculus with 34 samples.

Results

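The comparison set seminiferous tubule segments of stages IV-VI against segments of stages I-III, 4 arrays a side and 8 of the 34 arrays of the series. Each array held total RNA of C57BL6/j mice aged 6 to 8 weeks. The arrays were chosen by their labelled stage and arm. In stages IV-VI there were 2 untreated arrays and 2 arrays taken 5 days after a lentivirus carrying Venus, a fluorescent protein used as the virus control, was injected into the testis. In stages I-III there were likewise 2 untreated and 2 Venus arrays. A further arm, injected with virus carrying dnRARa, a dominant negative retinoic acid receptor alpha, had 2 arrays in each of these stage groups. Its levels did not enter the differences that chose the genes, but the spread between its replicates entered the model behind their p-values. Arrays are labelled as biological duplicates, and the labels do not say how many animals or tubule segments each held. The promoter that drives the viral genes and the share of cells infected are not given in the sources used here. P-values measure the spread between such duplicates.

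The seminiferous epithelium runs through a cycle of stages, each a fixed association of germ cell generations around the somatic Sertoli cells. In stages I-III early pachytene spermatocytes and young round spermatids lie beneath elongated spermatids. By stages IV-VI the spermatogonia divide through intermediate to type B cells, pachytene spermatocytes have grown, round spermatids spread the acrosome over the nucleus, and elongated spermatids move towards the lumen. Meiotic divisions fall outside both groups, in stage XII.

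Levels are given on a log2 scale on which 0 is the 75th percentile of an array's spots, so that a difference of 1 is 2-fold. From 54.99% to 72.04% of spots on the 8 arrays were well above background. Replicates differed more in the untreated arm (SD over genes of the difference between replicates 0.639 in IV-VI and 0.657 in I-III) than in the Venus arm (0.333 in IV-VI and 0.316 in I-III). The file headers place the untreated IV-VI and I-III arrays on different slides, so stage and slide cannot be told apart in that arm. In the Venus arm each slide held 1 array of each stage. Sertoli cell markers were present throughout: none of 24 measured was at background on all 8 arrays, and their summed signal was 186.26 to 308.41 in IV-VI against 166.59 to 295.22 in I-III (array 75th percentile = 1).

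Many genes were called different between the stage groups with both arms combined. The Venus arm alone called 0, and in the untreated arm stage and slide cannot be told apart. With limma, 3408 of 22781 genes passed an adjusted p of 0.05 with both arms combined, 1680 higher in IV-VI (7.37% of genes tested) and 1728 lower (7.59%). Of these, 3042 also agreed in both arms, meaning that both IV-VI arrays lay on the same side of both I-III arrays in the untreated and in the Venus arm. For every agreeing gene described below, the lack of overlap between stages within each arm therefore follows from the choice. How many of all genes tested meet this rule without being called was not counted, so the lack of overlap adds no evidence for a gene. The agreeing genes were 1508 higher (6.62%) and 1534 lower (6.73%), and 366 called genes did not agree, 24 of them with opposite signs in the arms. The median difference was 0.65 for the higher and -0.54 for the lower genes, and 300 of the higher and 141 of the lower genes passed 2-fold. Of the higher genes 1264 (83.8%), and of the lower 1433 (93.4%), were above background on all 8 arrays, against 74.8% of genes tested. At the edge of the threshold, the agreeing gene Hoga1 differed by 0.37 with an adjusted p of 0.049914, while Cyc1, at 0.35 and 0.050036, fell just outside.

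The calls rest on the spread shared by all 24 tubule arrays: a model of the 8 arrays alone called 0 genes (smallest adjusted p = 0.0542, 5718 genes at an unadjusted p under 0.05). With slide and scan day as a block in the virus arms the count was 3996. Scaling by the array median changed the split to 1032 higher and 2281 lower, against 1680 and 1728. Leaving out 1 array moved the combined count by over 1.5 times for I-III Venus replicate 1 (1979 genes), I-III Venus replicate 2 (2002) and IV-VI Venus replicate 2 (1782). The agreeing count was 1876 and 1941 without these I-III arrays, 1710 without that IV-VI array, and 2017 without IV-VI untreated replicate 2.

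As a description of values that chose them, the agreeing higher genes had a median difference of 0.88 in the untreated and 0.42 in the Venus arm, and the lower genes -0.70 and -0.36. The untreated replicates were also the more spread, as given above. Taken alone, the untreated arm called 3337 of 18564 genes (18%). The Venus arm called 0 of 22622 (0%), with 1717 at an unadjusted p under 0.05; when arms were weighted by their spread, limma called 656 genes in the Venus arm and 700 in the untreated arm. A test of the difference between arms called 1 gene, BC072607. Across genes the untreated and Venus differences correlated at r = 0.515 (rho 0.559, 22781 genes, which are not independent replicates and share their arrays).

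**Figure D1:**
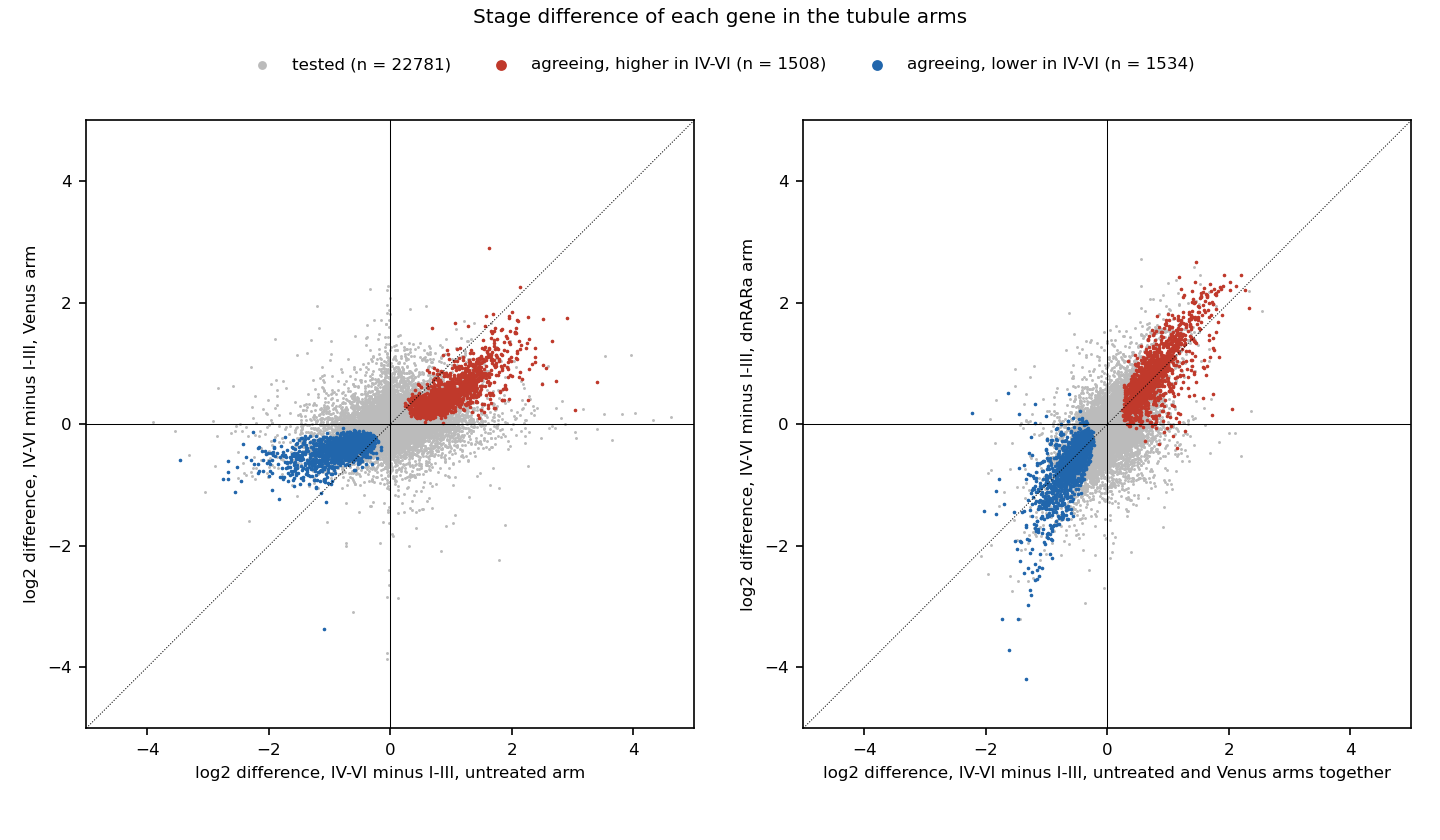
Each point is 1 gene, with log2 differences of stages IV-VI minus I-III in the untreated (horizontal) and Venus arm (vertical) on the left, and in both arms together (horizontal) and the dnRARa arm (vertical) on the right; the dotted line marks equal differences. The 1508 higher and 1534 lower agreeing genes lie in the matching quadrants on the left by the way they were chosen, while on the right 1470 of 1484 higher and 1495 of 1511 lower genes have the same sign in the dnRARa arm, whose levels did not enter the choice but whose replicate spread did.

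Among the 15 largest rises with a gene symbol, 9 were above background on all 8 arrays. Prnd, which encodes the prion-like protein doppel of the testis, was at 3.24 and 3.59 in IV-VI against 1.68 and 0.95 in I-III of the untreated arm. In the Venus arm it was at 2.34 and 3.22 in IV-VI against 0.81 and 1.37 in I-III. The lowest IV-VI array lay above the highest I-III array, and the difference was 1.90 (SE 0.24, adjusted p = 0.000671), or 3.73-fold. Metrnl, a gene for a secreted meteorin-like protein, stood at 0.07 and -0.01 in IV-VI against -1.70 and -2.49 in I-III of untreated tubules. Its Venus values were -0.79 and -0.37 in IV-VI against -1.94 on both I-III arrays. All 4 IV-VI values were above all 4 I-III values, with a difference of 1.74 (SE 0.24, adjusted p = 0.000919). Klf5, a zinc finger transcription factor gene, had -0.72 and -1.11 in IV-VI against -2.20 and -3.58 in I-III of untreated tubules. Venus tubules had -1.54 and -1.16 in IV-VI against -2.81 and -2.95 in I-III. Again no array overlapped, and Klf5 rose by 1.76 (SE 0.29, adjusted p = 0.00187).

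Slc25a41, a mitochondrial ATP-Mg/phosphate carrier gene, showed the wider spread of the untreated arm: 1.58 and 1.52 in IV-VI against 0.53 and -1.56 in I-III, and in the Venus arm 0.10 and 0.50 in IV-VI against -1.15 and -1.40 in I-III. The untreated I-III replicates lay far apart. Within each arm the stages did not overlap, as the choice of agreeing genes requires, and the difference was 1.82 (SE 0.31, adjusted p = 0.0023). Wnt3a, a Wnt ligand gene, rose by 1.72 (SE 0.27, adjusted p = 0.00158) and Vav3, a guanine nucleotide exchange factor gene, by 1.70 (SE 0.29, adjusted p = 0.00231). 4930548H24Rik rose by 1.85 (SE 0.35, adjusted p = 0.0042). Asb15, for a SOCS box protein, differed by 2.01 (adjusted p = 0.0174), and its call was lost without I-III untreated replicate 2, I-III Venus replicate 2 or IV-VI Venus replicate 2 (adjusted p up to 0.0755). Tmem144 differed by 1.86 (adjusted p = 0.0199), with 3.16 and -0.04 on its untreated I-III arrays. Its call was lost without IV-VI untreated replicate 1, either I-III Venus array or IV-VI Venus replicate 2 (adjusted p up to 0.081).

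The other 6 large rises were dim in I-III. Olfr212, an odorant receptor gene, was above background on all 4 IV-VI arrays and on the untreated I-III arrays, and in the Venus arm was at least 3.35-fold higher in IV-VI than in I-III, where neither array measured it. Slfn5, a Schlafen family gene, was at least 2.51-fold and Capn9, a calpain protease gene, at least 2.5-fold higher in the untreated arm. These bounds set the IV-VI mean against the lowest signal called above background on the I-III arrays. Htr2a, a serotonin receptor gene, was measured on the 2 untreated IV-VI arrays and on no I-III array (at least 2.36-fold there). It was above background on no Venus array, so its agreement in that arm and its combined test rest on background values. Rassf6 and Ly6a were measured on 4 IV-VI and 3 I-III arrays. Slfn5 and Capn9 were each above background on 4 IV-VI arrays and 1 I-III array, so they entered the test only through IV-VI. Their combined tests, and that of Olfr212 through its Venus arm, rest partly on background values. The adjusted p from the combined fit was 0.000737 for Olfr212, 0.00148 for Slfn5, 0.002 for Capn9, 0.00771 for Rassf6 and 0.0115 for Ly6a, whose call was lost without IV-VI Venus replicate 2 (adjusted p = 0.0566).

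Falls were most marked, among genes measured on all 8 arrays, in Oit3, Tmem255a, Sowahd and Chdh. Chdh encodes choline dehydrogenase, the mitochondrial enzyme that makes betaine aldehyde. It was at -2.68 and -2.53 in IV-VI against -0.41 and -0.44 in I-III of untreated tubules, and at -1.45 and -2.02 in IV-VI against -0.78 and -1.08 in I-III of Venus tubules. The stages were apart in each arm, widely in untreated and narrowly in Venus tubules, and Chdh fell by 1.49 (SE 0.26, adjusted p = 0.00261). Sowahd, on the X chromosome, stood at -2.99 and -2.78 in IV-VI against -0.52 and -0.19 in I-III of untreated tubules. In Venus tubules it stood at -1.69 and -2.42 in IV-VI against -1.25 and -1.44 in I-III. All IV-VI arrays were below all I-III arrays, with a difference of -1.62 (SE 0.35, adjusted p = 0.00767). X-linked Tmem255a fell by 1.73 (SE 0.35, adjusted p = 0.00558), a call lost with the mean of detected probes (adjusted p = 0.207).

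The guanine nucleotide exchange factor gene Arhgef39 fell by 1.41 (SE 0.22, adjusted p = 0.00139), Tmem51 by 1.37 (SE 0.27, adjusted p = 0.00525) and Unc5a, a netrin receptor gene, by 1.34 (SE 0.21, adjusted p = 0.00155). Oit3 differed by -1.83 (adjusted p = 0.0339) and 4921517D22Rik by -1.44 (adjusted p = 0.0496). Oit3 lost its call without any 1 array except IV-VI untreated replicate 1 and IV-VI Venus replicate 1 (adjusted p up to 0.138), and 4921517D22Rik without any except IV-VI untreated replicate 1 (up to 0.193). Both calls were also lost with normexp, the mean of detected probes and arm weights. The other large falls were not measured on all arrays. Lax1 was at least 2.15-fold and Slc23a3 at least 1.66-fold lower in untreated IV-VI than in I-III. Lax1 was above background on the 2 untreated I-III arrays only, so its agreement in the Venus arm rests on background values. F2rl1, a protease-activated receptor gene, was at least 3.88-fold lower in the Venus arm and not above background in the untreated arm, where its agreement rests on background values. Cblif and Adamts19 were each above background on 1 IV-VI array and 3 I-III arrays, so they entered the test only through I-III. Ggt6 had a bound of 1.34 in the untreated arm. There Cblif and Adamts19 were above background on only 1 I-III array, so their ratios of 1.55 and 1.06 are not bounds. With normexp background correction the fitted difference turned positive in these 6, without passing: 0.67 for F2rl1, 0.33 for Slc23a3, 0.51 for Cblif, 0.41 for Ggt6, 0.43 for Lax1 and 0.52 for Adamts19. Normexp moved the median of all genes to 0.24, and 157 of the 1534 lower genes then had a positive difference, none of them called.

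**Figure D2:**
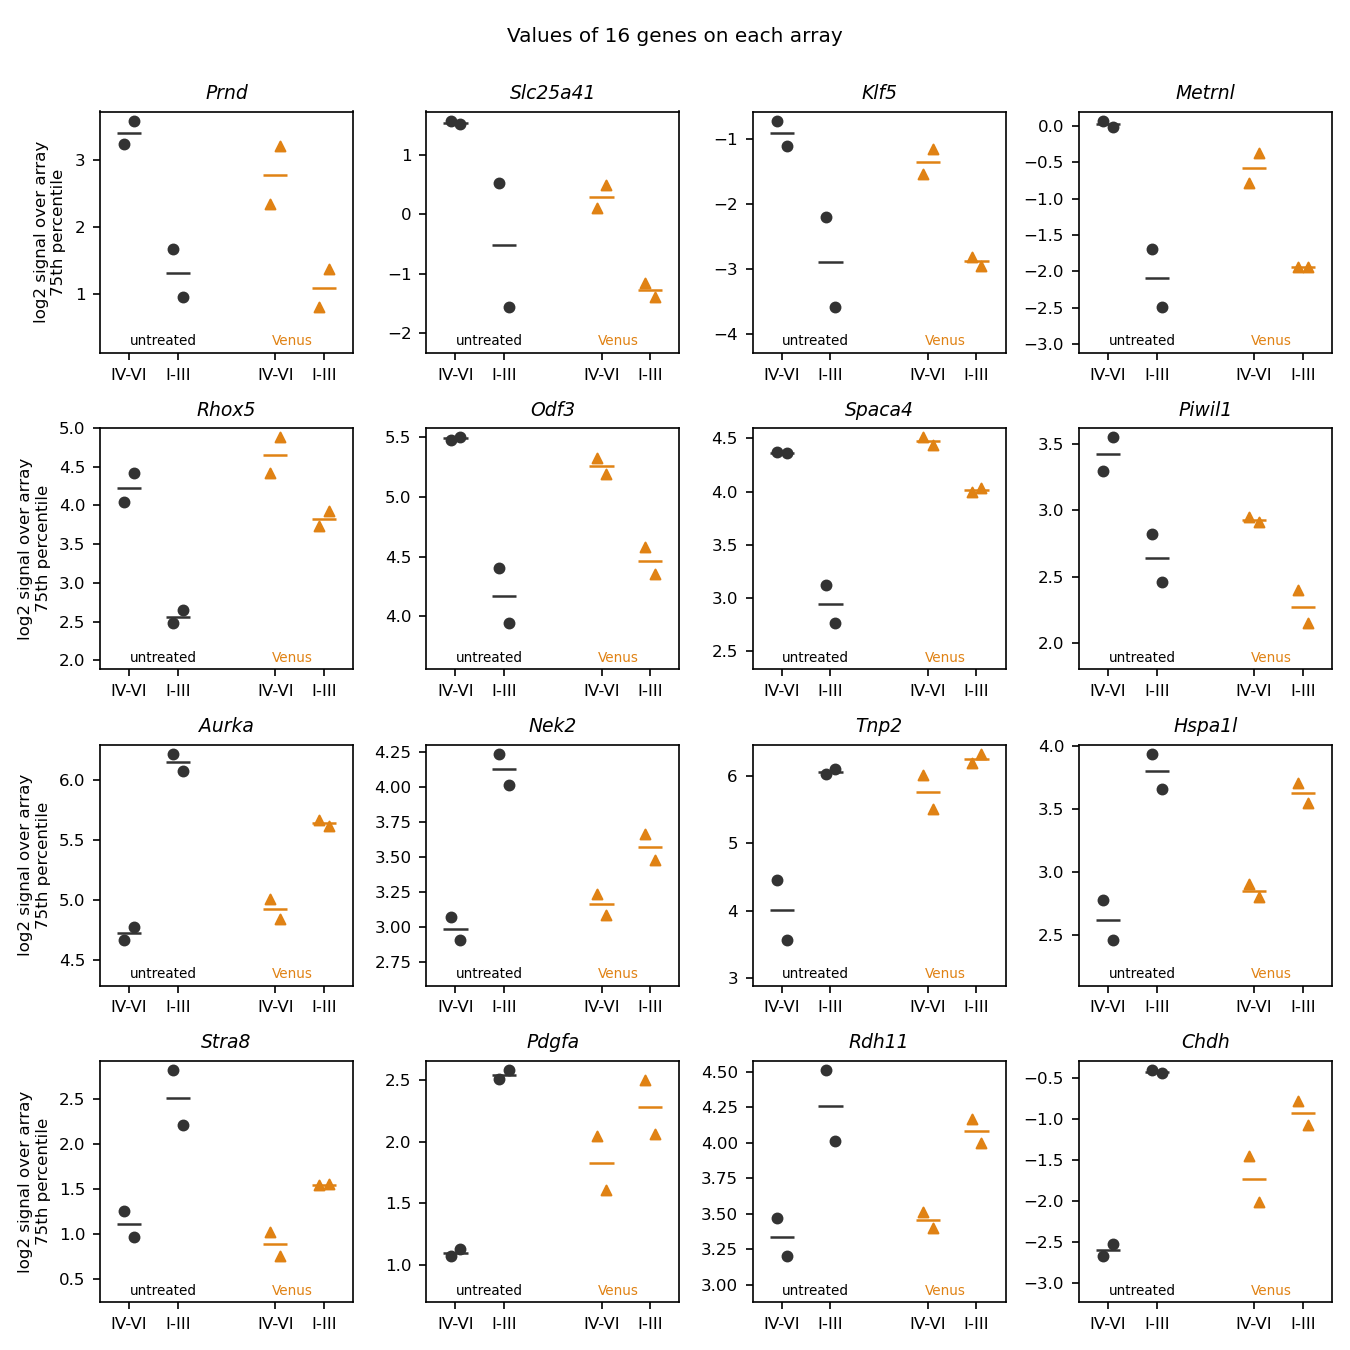
Each point is 1 array, with its log2 signal relative to the array's 75th percentile on the vertical axis, for 16 named genes; IV-VI stands left of I-III, circles are untreated, triangles are Venus and lines are means of 2 arrays. All 16 are agreeing genes, so within each arm no IV-VI array overlaps an I-III array by the way they were chosen. The difference between stage means is larger in untreated than in Venus tubules in all 16, for example 2.05 against 0.49 for Tnp2. Regardless of sign, it is larger in 96.5% of higher and 95.2% of lower agreeing genes, and in 72.1% of genes tested.

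Genes of round spermatids and the acrosome, the cap of enzymes over the sperm nucleus, were higher in IV-VI. Of 30 tested, 12 rose and 0 fell, all 12 agreeing, beside 7.37% rising among all genes, and the median was 0.44 against 0.00 over all genes. Over other scalings 8 to 15 rose and 1 fell. Spaca4, a sperm acrosome membrane protein gene, was at 4.37 and 4.36 in IV-VI against 3.12 and 2.76 in I-III of untreated tubules, and at 4.51 and 4.44 in IV-VI against 4.0 and 4.03 in I-III of Venus tubules. The IV-VI values were close to each other across arms, while the untreated I-III arrays were the lowest. Spaca4 rose by 0.94 (SE 0.18, adjusted p = 0.00371), Spata46 by 0.60 (SE 0.12, adjusted p = 0.00612) and Spaca7 by 0.52 (SE 0.09, adjusted p = 0.00295). Ropn1, for the flagellar protein ropporin, rose by 0.47 (SE 0.09, adjusted p = 0.00452), which normexp lost (adjusted p = 0.0662). The other 8 that passed, named after their values were seen, were Fhl5 (0.79), Actl7a (0.42), Spam1 (0.94), Catsper4 (0.71), Sun5 (0.99), Klhl10 (0.40), Catsper1 (0.77) and Tssk1 (0.53). Acr, the gene of the acrosomal protease acrosin, did not pass: it was at 3.30, 3.14, 3.64 and 3.50 in IV-VI against 3.18, 3.17, 3.61 and 3.55 in I-III (difference 0.01, adjusted p = 0.942). In bulk RNA, more cells of a type and more RNA per cell cannot be told apart.

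Pachytene spermatocyte genes went both ways. Of 28 tested, 2 rose and 5 fell, with a median of -0.02, beside 7.37% rising and 7.59% falling among all genes. Piwil1, which encodes the PIWI protein that binds pachytene piRNAs, was at 3.30 and 3.55 in IV-VI against 2.82 and 2.46 in I-III of untreated tubules. In Venus tubules it was at 2.95 and 2.91 in IV-VI against 2.40 and 2.15 in I-III. Every IV-VI array was above every I-III array, and Piwil1 rose by 0.72 (SE 0.13, adjusted p = 0.00299). Tdrd1, for a tudor protein of the same small RNA pathway, rose by 0.73 (SE 0.12, adjusted p = 0.00175). Nek2, a centrosomal kinase gene, was at 3.07 and 2.91 in IV-VI against 4.24 and 4.02 in I-III of untreated tubules, and at 3.24 and 3.09 in IV-VI against 3.67 and 3.48 in I-III of Venus tubules. Nek2 fell by 0.77 (SE 0.09, adjusted p = 0.000579) and Ccna1, the germ cell cyclin A1, by 0.88 (SE 0.14, adjusted p = 0.0016), the Ccna1 call being lost in 1 model of all 34 arrays (adjusted p = 0.0784). Pttg1, Tbpl1 and Aurkc fell by 0.45, 0.29 and 0.48, named after their values were seen.

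Mitosis genes fell. Of 19 tested, 9 fell and 0 rose, all 9 agreeing, beside 7.59% falling among all genes, and the median was -0.32. Under the 3 other scalings 9 to 10 fell. Aurka, for the spindle kinase Aurora A, was at 4.67 and 4.78 in IV-VI against 6.22 and 6.08 in I-III of untreated tubules. Its values in Venus tubules were 5.01 and 4.84 in IV-VI against 5.67 and 5.62 in I-III. No array overlapped and Aurka fell by 1.07 (SE 0.13, adjusted p = 0.00063), or 2.11-fold. Cdk1, the mitotic cyclin-dependent kinase gene, fell by 0.64 (SE 0.11, adjusted p = 0.00218), Plk1, the Polo kinase gene, by 0.61 (SE 0.13, adjusted p = 0.007) and Cenpe, the kinetochore motor gene, by 0.51 (SE 0.10, adjusted p = 0.00401). The remaining 5, named after their values were seen, were Ccnb1, Aurkb, Cdc20, Kif20a and Birc5, at -0.55, -0.79, -0.31, -0.34 and -0.37. Of 20 DNA replication genes, 4 fell and 1 rose (median 0.08), beside 7.59% falling and 7.37% rising among all genes. Among them Rrm1, a ribonucleotide reductase subunit gene, fell by 0.55 (SE 0.08, adjusted p = 0.00113).

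Elongating spermatid genes, for the proteins that pack sperm DNA and build the tail, were mixed, with 2 higher and 5 lower of 24 (median -0.01). Among all genes 7.37% were higher and 7.59% lower. Tnp2, for transition protein 2, was at 4.46 and 3.57 in IV-VI against 6.03 and 6.10 in I-III of untreated tubules. In Venus tubules the values were 6.02 and 5.51 in IV-VI against 6.19 and 6.33 in I-III. IV-VI was the lower in both arms, by 2.05 in the untreated and 0.49 in the Venus arm, and the combined fall was 1.27 (SE 0.24, adjusted p = 0.00412). Hspa1l, a spermatid HSP70 gene, fell by 0.98 (SE 0.11, adjusted p = 0.000573). Odf3, an outer dense fibre gene of the tail, was at 5.48 and 5.50 in IV-VI against 4.40 and 3.94 in I-III of untreated tubules. Its Venus values were 5.33 and 5.19 in IV-VI against 4.58 and 4.35 in I-III. No array overlapped and Odf3 rose by 1.06 (SE 0.12, adjusted p = 0.000518). Protamine 1 (Prm1, -0.52, adjusted p = 0.0612) and transition protein 1 (Tnp1, -0.45, adjusted p = 0.171) did not pass. Of 15 flagellum and axoneme genes, 3 fell and 1 rose, with falls of 0.67 for Spag6l (SE 0.15, adjusted p = 0.00784) and 0.38 for Rsph6a (SE 0.07, adjusted p = 0.00455), the second lost in 1 model of all 34 arrays (adjusted p = 0.0979).

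Counts of spermatogonial genes that passed were small and near the shares over all genes, 7.37% rising and 7.59% falling. Of 16 genes of undifferentiated spermatogonia 1 rose, Id4 (0.51, SE 0.11, adjusted p = 0.00866), an inhibitor of DNA binding gene, a call lost with median scaling and with normexp (adjusted p up to 0.0636). Gfra1, the GDNF co-receptor gene, differed by 0.49 (adjusted p = 0.39) and the receptor kinase gene Kit by 0.32 (adjusted p = 0.192). Nanos3 was at -2.08, -5.23, -4.30 and -4.34 in IV-VI against -0.36, -6.33, -4.80 and -4.57 in I-III, a spread between replicates that left a difference of 0.03 with an SE of 1.23. Of 13 genes of differentiating spermatogonia, X-linked Esx1, a homeobox gene, rose (0.88, SE 0.12, adjusted p = 0.000894, lost in 1 model of all 34 arrays at 0.359) and Stra8 fell. Stra8, which retinoic acid induces before meiosis, was at 1.25 and 0.97 in IV-VI against 2.82 and 2.21 in I-III of untreated tubules. In Venus tubules it was at 1.02 and 0.75 in IV-VI against 1.54 and 1.55 in I-III. All IV-VI values were below all I-III values (difference -1.04, SE 0.31, adjusted p = 0.0398), but the call was lost without any 1 array except I-III untreated replicate 2 (adjusted p up to 0.131), and with no detection filter or with arm weights (up to 0.0621). Of 18 meiotic entry and recombination genes 3 rose and 1, Stra8, fell (median 0.06), and 1 rose with median scaling or normexp and 4 with quantile normalization. Tex15 and Msh4, both at 0.50 (adjusted p = 0.0398 and 0.0411), lost their calls without any 1 of the 8 arrays (up to 0.118 and 0.132). Tex12, a synaptonemal complex gene, rose by 0.44 (SE 0.09, adjusted p = 0.00701, lost with normexp at 0.0685), and Sycp3 of the same complex differed by -0.18 (adjusted p = 0.435).

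**Figure D3:**
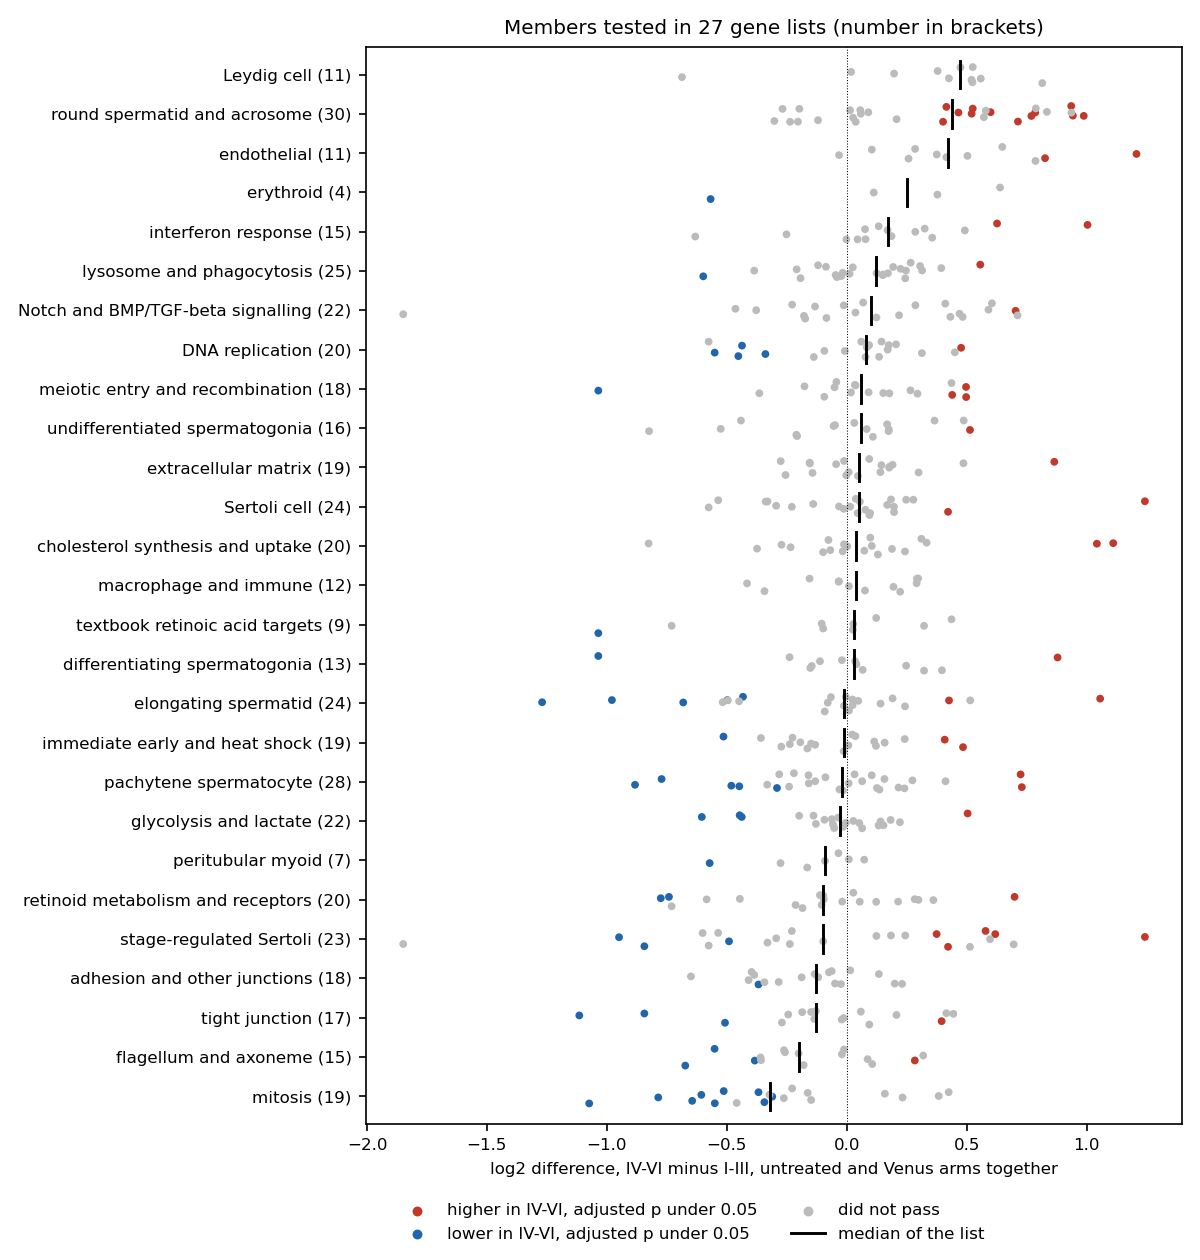
Each point is 1 tested gene of 27 lists, placed by its log2 difference of IV-VI minus I-III in both arms together; red and blue points passed an adjusted p of 0.05, grey points did not, and bars are list medians. Round spermatid and acrosome genes (12 of 30 higher, median 0.44) and mitosis genes (9 of 19 lower, median -0.32) hold the most passing members in 1 direction.

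Sertoli cell markers as a list did not shift: 2 of 24 rose, 0 fell and the median was 0.05, beside 7.37% rising and 7.59% falling among all genes. Rhox5, an X-linked homeobox gene of Sertoli cells that androgen induces, was at 4.04 and 4.42 in IV-VI against 2.48 and 2.65 in I-III of untreated tubules. It stood at 4.42 and 4.88 in IV-VI against 3.73 and 3.93 in I-III of Venus tubules. The 4 IV-VI values were above all I-III values and Rhox5 rose by 1.24 (SE 0.12, adjusted p = 0.000373), or 2.37-fold. Sox9 (0.20, adjusted p = 0.446) and Cldn11 (-0.01, adjusted p = 0.954) did not pass.

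Of 23 Sertoli genes known for stage-dependent expression, 5 rose and 3 fell, 2 of the 3 agreeing in both arms. The shares over all genes were 7.37% rising and 7.59% falling. Eppin, for an epididymal protease inhibitor also made by Sertoli cells, rose by 0.58 (SE 0.09, adjusted p = 0.00177) and Drd4, a dopamine receptor gene, by 0.62 (SE 0.10, adjusted p = 0.00197), Drd4 being lost in 1 model of all 34 arrays (adjusted p = 0.0896). Pdgfa, a platelet-derived growth factor gene, was at 1.07 and 1.13 in IV-VI against 2.51 and 2.58 in I-III of untreated tubules. In Venus tubules it was at 2.05 and 1.61 in IV-VI against 2.50 and 2.06 in I-III, where the higher IV-VI array lay just below the lower I-III array. Pdgfa fell by 0.95 (SE 0.14, adjusted p = 0.0011).

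Tight junction genes, which seal the blood-testis barrier, fell in 3 and rose in 1 of 17, beside 7.59% falling and 7.37% rising among all genes. Ocln, for occludin, was at -4.74 and -4.58 in IV-VI against -3.10 and -3.05 in I-III of untreated tubules, and at -4.35 and -4.23 in IV-VI against -3.61 and -3.69 in I-III of Venus tubules. It fell by 1.11 (SE 0.27, adjusted p = 0.0153), but was above background on 3 IV-VI arrays and 4 I-III arrays, turned to 0.12 with normexp (adjusted p = 0.732) and lost its call without I-III Venus replicate 1 (adjusted p = 0.0508). Jam3, a junction adhesion molecule gene also expressed by germ cells, fell by 0.51 (SE 0.12, adjusted p = 0.0146), a call lost without I-III untreated replicate 2, IV-VI untreated replicate 1 or IV-VI Venus replicate 2 (up to 0.0603). Cldn3, for claudin 3, differed by -0.84 (adjusted p = 0.0406), lost without any 1 array except I-III untreated replicate 1 and IV-VI untreated replicate 2 (up to 0.144). Cldn12 differed by 0.40 (adjusted p = 0.0395), lost without any 1 of the 8 arrays (adjusted p 0.0626 to 0.128) and under 3 other scalings.

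In retinoid metabolism, which makes and clears retinoic acid, 1 gene rose and 2 fell of 20, near the shares of all genes (7.37% rising and 7.59% falling). Rdh11, a retinol dehydrogenase gene, was at 3.47 and 3.20 in IV-VI against 4.51 and 4.01 in I-III of untreated tubules. Venus tubules had 3.51 and 3.4 in IV-VI against 4.17 and 4.0 in I-III. No array overlapped and Rdh11 fell by 0.78 (SE 0.14, adjusted p = 0.00264). Lrat, for the enzyme that stores retinol as esters, rose by 0.70 (SE 0.16, adjusted p = 0.0116), lost with the mean of detected probes (adjusted p = 0.244). Dhrs4, another retinol-oxidising reductase gene, differed by -0.74 (adjusted p = 0.046), lost without any 1 of the 8 arrays (adjusted p 0.0603 to 0.148). Aldh1a2, which makes retinoic acid in germ cells, differed by -0.21 (adjusted p = 0.246), Cyp26b1, which clears it, by -0.10 (adjusted p = 0.726), and the receptor genes Rara and Rarg by 0.21 (adjusted p = 0.571) and -0.02 (adjusted p = 0.987), each above background on the 4 Venus arrays and no untreated one.

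Of the remaining lists, cholesterol synthesis and uptake had 2 higher of 20, among which Cyp51, for a sterol demethylase, differed by 1.11 (adjusted p = 0.0254, lost without I-III untreated replicate 2, IV-VI untreated replicate 1, I-III Venus replicate 2 or either IV-VI Venus array, up to 0.0933, and with normexp or the mean of detected probes, up to 0.147). Glycolysis and lactate genes had 1 higher and 3 lower of 22, 2 of the 3 agreeing, with Pfkm, for muscle-type phosphofructokinase, lower by 0.44 (difference -0.44, SE 0.08, adjusted p = 0.00442). Immediate early and heat shock genes had 2 higher and 1 lower of 19, with the chaperone gene Dnajb1 at -0.51 (SE 0.11, adjusted p = 0.00724). Interferon response genes had 2 higher of 15, of which Isg20 agreed in both arms (0.63, SE 0.11, adjusted p = 0.00251). Irf7 (1.00, adjusted p = 0.0183) did not agree, was not above background on either untreated I-III array, and lost its call without I-III untreated replicate 1, IV-VI untreated replicate 1, I-III Venus replicate 1 or IV-VI Venus replicate 2 (up to 0.0889). Notch and BMP/TGF-beta signalling had 1 higher of 22, Id2, another DNA-binding inhibitor gene (0.70, SE 0.14, adjusted p = 0.00608). Lysosome and phagocytosis had 1 in each direction of 25, extracellular matrix 1 higher of 19, other junctions 1 lower of 18 and textbook retinoic acid targets 1 lower of 9. Beside the counts of these lists stand 7.37% higher and 7.59% lower among all genes.

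RNA of cells outside the epithelium varied between arrays. For the counts here and in the next paragraph, the shares over all genes were 7.37% higher and 7.59% lower. Leydig cell genes, for steroid synthesis, had 0 of 11 past the threshold and a median of 0.47 (0.00 in the untreated and 0.95 in the Venus arm). Their summed signal was 24.85 to 64.32 in IV-VI against 28.21 to 43.55 in I-III, with the highest array IV-VI Venus replicate 2. Endothelial genes had 2 higher of 11 (median 0.42) and sums of 2.22 to 3.83 in IV-VI against 2.04 to 2.97 in I-III. Among them Tek, an angiopoietin receptor gene, rose by 1.21 (SE 0.28, adjusted p = 0.0106), and Cdh5, a cadherin gene, differed by 0.83 (adjusted p = 0.0323), lost without I-III untreated replicate 1, IV-VI untreated replicate 2, either I-III Venus array or IV-VI Venus replicate 2 (up to 0.135).

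Peritubular myoid genes, of the contractile cells around the tubule, had 1 lower of 7 and a median of -0.09, and their sums were 20.53 to 33.76 in IV-VI against 28.25 to 39.57 in I-III, lower in IV-VI within each arm. Acta2, smooth muscle actin, was lower by 0.57 (difference -0.57, adjusted p = 0.0156), a call lost without I-III untreated replicate 1, IV-VI untreated replicate 2, I-III Venus replicate 2 or IV-VI Venus replicate 2 (up to 0.0617), and with the mean of detected probes (0.488). Macrophage and immune genes had 0 of 12 past the threshold and sums of 3.95 to 14.9 in IV-VI against 4.38 to 9.84 in I-III. Erythroid genes had 1 lower of 4, a median of 0.25 and sums of 2.38 to 5.37 in IV-VI against 3.47 to 7.87 in I-III. The haemoglobin genes Hbb-bt (0.64, adjusted p = 0.481) and Hba-a1 (0.38, adjusted p = 0.559) were not lower. The lower gene was Alas2, for the erythroid haem synthesis enzyme (-0.57, adjusted p = 0.0377), lost without any 1 of the 8 arrays (0.0598 to 0.127). None of the measured markers was below background on all 8 arrays except 1 erythroid gene, and the part of these cells in the gene differences was not tested.

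**Figure D4:**
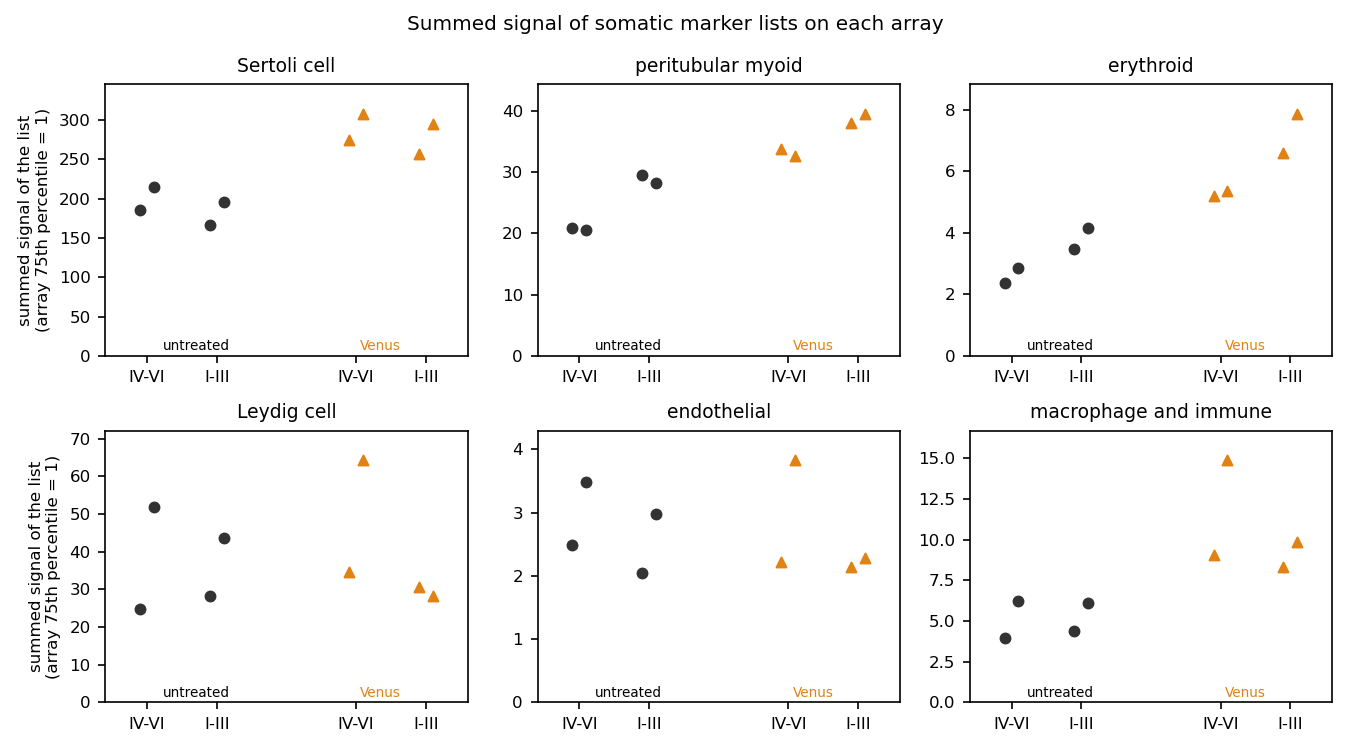
Each point is 1 array, with the summed signal of a marker list (linear scale, array 75th percentile = 1) on the vertical axis from 0; IV-VI stands left of I-III, circles are untreated and triangles Venus. The myoid and erythroid sums lie lower in IV-VI in each arm, while the list medians of single-gene differences are -0.09 and 0.25, and the Leydig sum is highest, 64.32, on 1 IV-VI Venus array.

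Levels in the later stages did not enter the differences that chose the genes, but the spread between their replicates entered the model behind the p-values. Of the 1508 higher genes, 55.9% were highest in stages VII-VIII and 43.4% in IV-VI of untreated tubules, and 70.2% and 28.4% in Venus tubules, while 62.5% and 62.9% were lowest in IX-XII. Relative to I-III their median was 0.88 in IV-VI, 0.99 in VII-VIII and -0.27 in IX-XII of untreated tubules. Of the 1534 lower genes, 76.7% were highest in IX-XII of untreated and 74.2% of Venus tubules, and 52.9% and 65.8% were lowest in VII-VIII. Relative to I-III their median in untreated tubules was -0.70 in IV-VI, -0.75 in VII-VIII and 0.36 in IX-XII. Over all genes tested, 22.5% were highest in IV-VI, 29.4% in VII-VIII and 33.5% in IX-XII of untreated tubules. In Venus tubules these shares were 20%, 24.3% and 31.2%. Lowest in VII-VIII were 30.1% in untreated and 33.9% in Venus tubules, and lowest in IX-XII 24.6% and 29.5%. By the choice, the higher genes could not be highest in I-III or lowest in IV-VI, and the reverse holds for the lower genes. Prnd, for instance, was at 4.58 and 4.55 in VII-VIII and at -0.63 and -0.41 in IX-XII of untreated tubules, and Aurka at 4.47 and 4.44 in VII-VIII and at 6.35 and 6.92 in IX-XII. The difference at IV-VI is fixed by the choice of genes, and all differences share the I-III arrays. Sample titles write VI-VIII for the group that source names call VII-VIII.

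**Figure D5:**
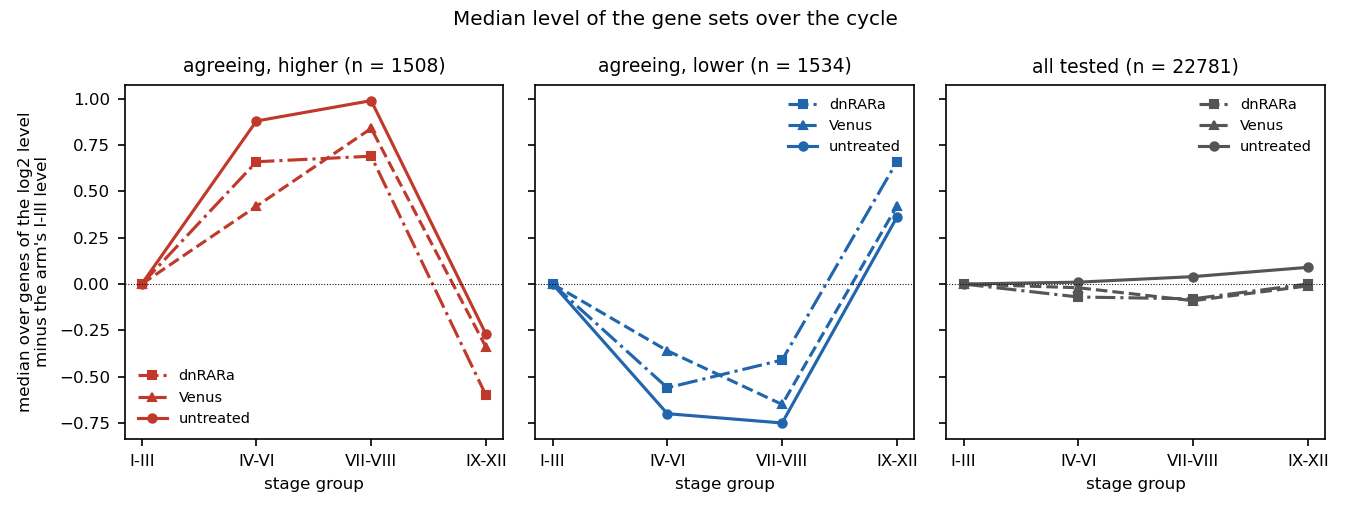
The median over genes of the log2 level minus that arm's I-III level is plotted over the 4 stage groups in the dnRARa, Venus and untreated arms, for the 1508 higher, the 1534 lower and all 22781 tested genes. The higher genes stay up in VII-VIII (0.99 untreated, 0.84 Venus, 0.69 dnRARa) and lie below I-III in IX-XII, the lower genes mirror them, and all tested genes stay within 0.09 of I-III.

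In the dnRARa arm the same stages were compared on levels outside the chosen differences, though its replicate spread is part of the model that called the genes, so the counts called there are not independent of the choice. It called 1730 of 21542 genes (8.03%), 832 higher and 898 lower. Of the agreeing genes tested there, 1470 of 1484 higher genes (99.1%) and 1495 of 1511 lower genes (98.9%) had the same sign, and 669 (45.1%) and 674 (44.6%) were called in the same direction, 0 in the opposite. Over all genes tested 77.1% had the same sign as the combined difference. The median dnRARa difference was 0.66 for the higher and -0.56 for the lower genes. Prnd was higher by 2.27 (adjusted p = 0.00175), Klf5 by 2.22 (adjusted p = 0.00501) and Piwil1 by 1.06 (adjusted p = 0.0039). Aurka was at -1.31 (adjusted p = 0.00118), Tnp2 at -2.73 (adjusted p = 0.000769), Sowahd at -3.72 (adjusted p = 0.00103) and Prm1, not called in the other arms, at -1.82 (adjusted p = 0.00109). Stra8 was at -0.60 and did not pass (adjusted p = 0.521), and Ly6a at 0.15 (adjusted p = 0.936). A test of dnRARa against Venus differences called 0 genes with limma (548 at an unadjusted p under 0.05) and 0 when arms were weighted by their spread. Without IV-VI dnRARa replicate 2 the dnRARa count was 269, without I-III dnRARa replicate 1 it was 570, and without I-III dnRARa replicate 2 it was 1056.

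Other preparations of the series placed the genes by cell source, as a description. Sertoli cells sorted from Nanos3-knockout testes, which lack germ cells, did not show 28.5% of the higher genes and 18.3% of the lower genes above background, against 17.9% of genes tested. In Sertoli cells sorted from wild-type testes, 19.5% of the higher and 11.4% of the lower genes were at least 2-fold above whole testes, against 27.4% of genes tested. At least 2-fold below whole testes were 56.7% and 56.3%, against 35.2%. Of genes with a mapped chromosome, 52 of 922 higher genes (5.64%) and 17 of 1051 lower genes (1.62%) lay on the X chromosome, against 473 of 13702 tested (3.45%).

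Promoters, the 250 bases before and 50 after a gene's start in the RefSeq table (GRCm38.p6, the first start listed per gene), were matched for 745 higher and 843 lower genes. On either strand the full cAMP response element TGACGTCA, the site bound by the CREB and CREM factors, was in 2.82% of higher, 2.14% of lower and 2.82% of tested genes' promoters, and in 1.88% of all 27025 promoters. The MYB forms AACTGC and AACCGT were in 13.4% and 4.03% of higher, 12.2% and 5.46% of lower, 12.5% and 4.02% of tested, and 13.7% and 3.57% of all promoters. The direct repeat of AGGTCA spaced by 5, the textbook RAR/RXR site, was in 0 promoters of either set and in 2 of all. As 0 of the 10982 tested promoters held this exact repeat, the 0 in each set was fixed and tells nothing about these genes. The shares of the other motifs lie near those of the genes tested. Short stretches before the start are shown for 4 agreeing genes with the response element in capitals, chosen after the search for their roles: Spag4, a SUN domain gene of the sperm tail (0.43 higher, adjusted p = 0.015, lost with median scaling and normexp, up to 0.104, and without I-III untreated replicate 2, IV-VI untreated replicate 1, I-III Venus replicate 2 or IV-VI Venus replicate 1, up to 0.0617), Suv39h2, a histone H3 lysine methyltransferase gene of the testis (0.45 higher), Brca2, the recombination mediator gene (0.52 higher), and Cenpe (-0.51). Each is read 5′ to 3′ on the gene's strand, from chr2:156065150-156065209 (plus), chr2:3475038-3475097 (minus), chr5:150522575-150522620 (plus) and chr3:135212503-135212562 (plus).
Spag4: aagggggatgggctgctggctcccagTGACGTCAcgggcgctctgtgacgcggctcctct
Suv39h2: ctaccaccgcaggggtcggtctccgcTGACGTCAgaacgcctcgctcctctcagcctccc
Brca2: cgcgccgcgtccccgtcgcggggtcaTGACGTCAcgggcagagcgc
Cenpe: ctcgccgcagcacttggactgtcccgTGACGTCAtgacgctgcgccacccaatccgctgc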

How the data were processed

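RNA was hybridised to 34 one-colour arrays, of which the 24 tubule arrays in 12 groups were modelled. Per the file headers, the authors obtained spot intensity from the scans in Feature Extraction, release 9.5.3.1 (the submitters' processing notes give Agilent's 9.5), which corrects background within each array; other deposited columns mark spots above background, saturated or outlying. No scaling between arrays was applied by the authors: the intensity in the deposited series table is the same as in the scanner files. From 0.2 µg RNA, per the labels, Cy3 cRNA was made.

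Of 45018 spots, 1639 controls and, on the 8 arrays, 46 to 197 outlier spots each were left out, and spots of a probe averaged. Of 41174 probes, 22951 were named by accession and 67 by symbol from RefSeq, and 18156 kept the files' identifier. The brightest probe stood for a gene. Each array's processed signals were put on the log2 scale and its 75th percentile was subtracted. Genes entered a test if 1 or more of the groups compared showed them above background in duplicate. Limma 3.58.1 (R 4.3.3) fitted 12 group means (12 residual degrees of freedom); tests were two-sided, Benjamini-Hochberg adjusted over all genes, in 6 contrasts. The combined difference is the mean of the untreated and Venus differences, so arm is a block. The fit was tested on simulated data with independent arrays and the same spread in every arm. Such data did not cover the correlation of replicate deviations or the wider spread of the untreated arm.

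Members, gene lists (27) and named genes were chosen with earlier results of these data known. Named are the 15 largest rises and falls with a symbol among agreeing genes, up to 4 genes per list with the smallest adjusted p, 18 fixed genes, and up to 5 genes per interaction. Alternatives were other scalings, background correction, probe and detection rules, an intensity trend, other sets of arrays, blocks, 2-fold and leaving out each array. Arm weights and the slide block in the virus arms were added after seeing the data. Replicate numbers are the slide and scan day in the virus arms, per the file headers. The number of arrays limits precision. Some genes the naming rule takes are not reported here.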

Additional observations from a re-analysis of the deposited data

Results flagged for a closer look

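BC072607, an identifier without a symbol in the annotation used, was the 1 gene whose stage difference was called different between arms (2.09 in Venus minus untreated, limma adjusted p = 0.0366). It was at -4.98 and -5.35 in IV-VI against -4.78 and -4.91 in I-III of Venus tubules, and at -7.07 and -7.34 in IV-VI against -4.72 and -4.84 in I-III of untreated tubules. Neither untreated IV-VI array and only 1 untreated I-III array was above background, so the untreated fall rests partly on background values and has no lower bound. The call was lost with median scaling, normexp, no detection filter, detection on every array, an intensity trend and slide as a random block. It was lost as well with arm weights, only the arrays compared, and the replicate block in all arms or in the virus arms alone. It was also lost without I-III Venus replicate 2 or IV-VI Venus replicate 1. Groups of 2 arrays were too small for a test of single outlying arrays.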

How the results depend on the processing

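Counts of called genes moved by over 1.5 times under some settings. With only the arrays compared in the model, 0 genes were called in the combined, agreeing, untreated, dnRARa and interaction comparisons. Requiring 2-fold as well left 507 combined, 441 agreeing, 1088 untreated and 696 dnRARa genes. Normexp gave 5401 untreated and 729 dnRARa genes, and arm weights 700 untreated and 656 Venus genes. The Venus count was 1 with quantile normalization, 10 with an intensity trend and 5 in 1 model of all 34 arrays, against 0. The interaction count, 1 as reported, was 6 with quantile normalization, 2 with the mean of detected probes and 2 with scan day as a block, and 0 with median scaling, normexp, no detection filter, detection on every array, an intensity trend, slide as a random block or arm weights. Leaving out 1 array gave 1782 to 2909 combined, 1710 to 2555 agreeing, 1571 to 2437 untreated, 9 to 36 Venus, 269 to 1206 dnRARa, 1 to 77 interaction and 0 to 28 dnRARa against Venus genes.

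With the replicate number as a block, 5577 combined, 5326 untreated, 2982 dnRARa and 3 interaction genes were called, BC072607 not among them. Replicate deviations of IV-VI and I-III correlated at 0.51 in untreated, 0.306 in Venus and 0.5 in dnRARa tubules. The lowest correlation of any stage pair was 0.078, for I-III and VII-VIII of Venus tubules, and none was negative. The main model left the replicate number out, although in the virus arms it is the slide and scan day.

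Differences changed sign for some genes that the naming rule takes. Those named only here did not pass as reported, except Ctsa (0.56, adjusted p = 0.0331) and Vcl (-0.37, adjusted p = 0.0202). With normexp the sign changed for Acr (-0.093), Adamts19 (0.52), BC072607 (0.52), Cblif (0.51), Cx3cr1 (0.70), Cyp26a1 (0.43), Cyp2a4 (0.47), Etv5 (0.37), F2rl1 (0.67), Fshr (0.10), Ggt6 (0.41), Lama1 (0.035), Lax1 (0.43), Lfng (0.87), Nectin2 (0.064), Oasl2 (0.08), Ocln (0.12), Rarg (0.88), Rxrg (0.91) and Slc23a3 (0.33), all but Acr negative as reported. With quantile normalization Cldn11 (0.025) and Rarg (0.31) turned, with median scaling Acr (-0.071) and Nanos3 (-0.054), and with the mean of detected probes Ctsa (-0.006), Cx3cr1 (0.058) and Vcl (0.25). Without 1 array the differences ranged over -0.026 to 0.053 for Acr, -0.059 to 0.034 for Cldn11, -0.23 to 0.03 for Cyp26b1, -0.036 to 0.79 for Hba-a1, -1.46 to 1.52 for Nanos3, -0.022 to 0.45 for Rara, -0.15 to 0.11 for Rarg and -0.11 to 0.33 for Slc4a1. The cause of these changes was not tested. Signals near background limit the dim genes.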
